A study of Oncorhynchus mykiss with 18 samples.

Results

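Blood plasma and epidermal mucus of rainbow trout were compared 1 h after the fish had been held out of water for 3 min, to find which known miRNAs were more abundant in the circulation and which on the skin surface of stressed fish. The comparison held 6 libraries of small RNA, 3 of stressed plasma and 3 of stressed mucus, out of 18 libraries in the series. They were chosen by sample type and treatment alone. Trout (Oncorhynchus mykiss) had a mean mass of 322 g and a mean length of 30.5 cm and were kept at 4 fish per tank, with no age given in the sources used here. Control fish were taken first, and the fish that remained in the tank were air exposed and sampled 1 h later as stressed fish. All were euthanized with buffered MS-222. The control fish are other animals than the stressed fish, and their 3 plasma and 3 mucus libraries serve below as a second comparison of the same fluids. Plasma was spun from blood drawn into EDTA at the tail, and mucus was scraped from the left side. From each stressed fish that was sequenced, 1 plasma and 1 mucus library of the same replicate number were made.

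MicroRNAs are short RNAs that guide Argonaute proteins to messenger RNAs and lower their output. Cells release part of their miRNAs in vesicles and protein complexes. Plasma can thus carry miRNAs of blood cells, vessel wall and liver, and skin mucus could carry those of epidermal and mucus cells. The cells of origin were not measured here, and the paper calls the sources in mucus unknown. In mammals, miR-203 and miR-205 mark keratinocytes, the miR-200 family holds cells in an epithelial state, miR-122 is made by hepatocytes, miR-126 by endothelium, miR-144 by erythroid cells, and miR-142 and miR-150 by leukocytes. No sequence is printed, because the files used here name the miRNAs without giving their bases.

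Counts were taken for 212 known miRNAs, those that carry a name of Atlantic salmon. Rows whose counts were identical in all 18 libraries were kept once, which left 194 distinct rows. Of these, 180 had at least 1 count in the 6 libraries and 14 had none. Known miRNAs summed to 3815302, 12858162 and 5359948 counts in stressed plasma replicates 1, 2 and 3 and to 858121, 415594 and 1596555 counts in stressed mucus replicates 1, 2 and 3. In plasma they made up 87.9% to 97.2% of all counts in the table, but in mucus 3.63%, 12.2% and 91.2%, the remainder falling on predicted miRNAs named by genomic location. Mucus replicates 1 and 2 therefore stand apart from replicate 3, and values without each library are given where a call rests on one. Over the distinct rows alone the totals were 3698011, 12627475 and 5228762 counts in stressed plasma replicates 1, 2 and 3. For stressed mucus replicates 1, 2 and 3 they were 746708, 344347 and 1322996 counts. Shares of known counts below are of these distinct totals unless stated otherwise. Plasma RNA was extracted with a Norgen kit and mucus RNA with a Qiagen kit, so sample type and extraction kit cannot be told apart in any comparison below. Nor can the number of cells that shed a miRNA be told apart from the amount each shed.

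Levels are in CPM, the counts of a row relative to those of all distinct known rows tested in its library. They were scaled by the trimmed mean of M values (TMM) and are listed for replicates 1, 2 and 3 in that order. Fold changes are log2 of plasma over mucus, so that negative values are higher in mucus. To be called, a row needed p of 0.05 or less, an adjusted p (false discovery rate) under 0.1 and a log2 fold change beyond 2 in either direction, by the quasi-likelihood test of edgeR, the source of every adjusted p below unless another is named. Scaling mattered: the median log2 fold change of all tested rows was 2.19, and it shifted by -1.15 with the size factors of DESeq2, so that each fold change is relative to this choice. Without stressed mucus replicate 3, when 154 rows passed the filter in place of 131, the median was 3.92. Fold changes against a group with 0 counts in every library are given as lower bounds against 3 counts over that group, a floor of 1.14 CPM in mucus and 0.173 CPM in plasma. These floors cover counting error only.

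Plasma and mucus of stressed fish differed in most known miRNAs that passed the filter on low counts. Of 131 rows that did, 80 were called (61.1%), 62 higher in plasma (47.3%) and 18 higher in mucus (13.7%). Those higher in plasma were led by miR-125b-5p, miR-125a-5p, miR-126-5p, miR-143-5p and miR-145-5p, and those higher in mucus by miR-203a-2-5p, miR-203b-3p, miR-200b-3p and the miR-200a rows. The filter can be passed by plasma alone: 22 tested rows had no count in any stressed mucus library, and all 22 were called. Such rows, among them miR-125b-5p and miR-125a-5p, could only be called higher in plasma, since the filter fixed their direction. Rows counted in mucus replicate 3 alone, such as miR-122-5p, miR-199a-3p and miR-26d-5p, also passed the filter through plasma. Among the 76 tested rows with counts in all 6 libraries, 43 were called (56.6%): 28 (36.8%) were called higher in plasma and 15 (19.7%) higher in mucus, and their median log2 fold change was 0.96. Of the 49 rows with counts that were not tested, 41 had counts in plasma only and 3 in mucus only. The 3 plasma and the 3 mucus libraries did not overlap for 97 of the tested rows (74%), and for 79 of the 80 called. With DESeq2 size factors 51 rows were called higher in plasma and 23 higher in mucus, and the count of calls lay between 72 and 90 when each library was left out in turn.

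**Figure D1:**
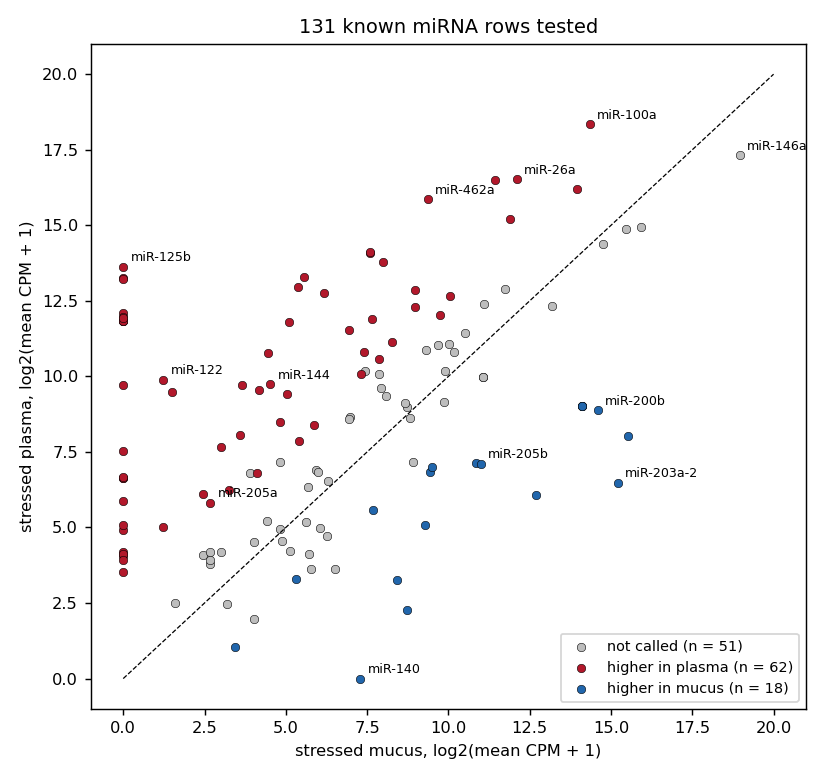
Mean normalised level of each of the 131 tested known miRNA rows in stressed mucus (horizontal axis) and stressed plasma (vertical axis), both as log2(mean CPM + 1) over 3 libraries, with the dashed line at equal levels. The 62 rows called higher in plasma lie above the line, 22 of them at 0 counts in mucus on the left edge, and the 18 called higher in mucus lie below it.

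Fewer known miRNAs were detected in mucus than in plasma. At least 1 count was found for 158, 166 and 160 distinct rows in plasma and for 95, 86 and 112 in mucus. Thinned to 344347 counts, the distinct total of the smallest library, plasma held 150.7, 138.8 and 148.5 rows and mucus 94.8, 86 and 110.1. Every plasma library thus exceeded every mucus library at an equal total of known counts. The difference of the means was 49.0 rows (exact permutation test, 2-sided, p = 0.1, the smallest that 3 against 3 libraries can give). An equal total did not leave equal depth for the other rows, since miR-146a-5p took more of the counts in mucus. What this did to the number detected was not tested.

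Mucus was dominated by 1 miRNA. miR-146a-5p, which damps innate immune signalling in mammals, took 67.2%, 56.7% and 44.2% of the counts of distinct known rows in mucus. Its shares in plasma were 16.9%, 12.3% and 14.9%. In plasma, miR-100a-5p was the most abundant, with 18%, 38.6% and 21% of the counts against 1.45%, 2.22% and 3.35% in mucus. The 10 most abundant rows of a library held 71.6% to 85.6% of the counts in plasma and 87.0% to 93.0% in mucus, and the groups did not overlap (difference of -10.9 percentage points, exact permutation test, 2-sided, p = 0.1). With rows of identical counts all kept, the groups overlapped and the difference was -4.75 percentage points (exact permutation test, 2-sided, p = 0.5). With such rows kept once but stressed plasma replicate 1 left out, the difference was -7.15 percentage points. By mean CPM, miR-100a-5p was followed in plasma by miR-146a-5p, miR-26a-5p, let-7a-5p, let-7e-5p, miR-462a-5p, miR-181a-5p, miR-10b-5p, miR-21b-5p and miR-21a-5p. In mucus miR-146a-5p was followed by miR-10b-5p, miR-203b-3p, miR-21b-5p, miR-203a-2-5p, miR-21a-5p, miR-200b-3p, miR-100a-5p and the miR-200a rows.

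Mean CPM put miR-26a-5p and let-7a-5p at 94308 ± 48999 and 93539 ± 44374 (SD, n = 3) in plasma, which do not differ beyond their spread, and the same holds for miR-203b-3p at 47124 ± 5379 and miR-21b-5p at 45378 ± 10383 (SD, n = 3) in mucus. Across the 76 rows counted in all 6 libraries, log2 CPM correlated between plasma libraries with r of 0.94 to 0.98, between mucus libraries with r of 0.94 to 0.96, and between a plasma and a mucus library with r of 0.35 to 0.51. These are correlations across miRNAs, which are not independent replicates. The median coefficient of variation of a row was 38.6% in plasma and 45.9% in mucus.

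**Figure D2:**
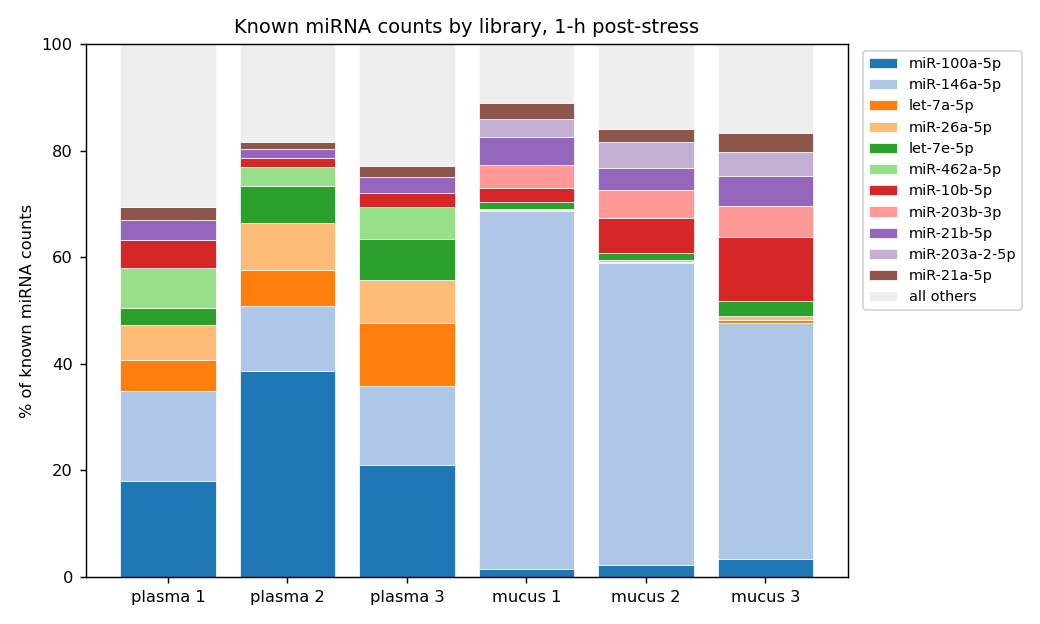
Share of the counts of distinct known miRNA rows in each stressed library (vertical axis, %). Coloured are the miRNAs that were among the 6 most abundant of plasma or of mucus, with all others in light grey. miR-146a-5p fills 44.2% to 67.2% of each mucus library, while miR-100a-5p fills 18.0% to 38.6% of each plasma library.

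The skin miRNAs were among those most enriched in mucus. Of 4 tested members of the miR-203 and miR-205 list, 3 were higher in mucus and 1 higher in plasma, against 13.7% and 47.3% of all tested rows. Their median log2 fold change was -5.71 against 2.19 over all tested rows, and their summed level was 228 to 812 CPM in plasma and 78929 to 97289 CPM in mucus. miR-203a-2-5p, whose counts were identical with those of the rows miR-203a-3p and miR-203a-5p, stood at 75.2, 51.5 and 137 CPM in plasma and at 33096, 40909 and 40347 CPM in mucus. Every mucus library lay far above every plasma library, and the log2 fold change was -8.76 (SE 0.62, adjusted p = 5.93e-05). miR-203b-3p, a paralog that shares the role in keratinocyte differentiation known from mammals, was at 223, 86.6 and 466 CPM in plasma and 44489, 43571 and 53313 CPM in mucus, a log2 fold change of -7.51 (SE 0.78, adjusted p = 1.46e-04). Both held their calls under every alternative tried.

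The miR-205 paralogs were called in opposite directions. miR-205b-5p, of a family that marks stratified epithelium, was at 187, 62.9 and 159.5 CPM in plasma and 1337, 1192 and 3619 CPM in mucus, with no overlap and a log2 fold change of -3.91 (SE 0.72, adjusted p = 0.00253). miR-205a-5p was far scarcer, with 442, 209 and 237 counts in plasma and 5, 0 and 14 counts in mucus, and was higher in plasma at a log2 fold change of 3.23 (SE 1.11, adjusted p = 0.0352). Within a library, which needs no scaling, miR-205b-5p outnumbered miR-205a-5p by 2.09, 2.30 and 3.23 to 1 in the plasma libraries. In mucus the ratio was 199 in replicate 1 and 381 in replicate 3, and replicate 2 had 498 counts of miR-205b-5p and 0 of miR-205a-5p. The call of miR-205a-5p was lost without stressed plasma replicate 1 (adjusted p = 0.124), without stressed mucus replicate 1 (adjusted p = 0.123) and with DESeq2 size factors (adjusted p = 0.0802). Summed over both paralogs the family was higher in mucus at a log2 fold change of -3.23 (SE 0.71, adjusted p = 0.00395).

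The miR-200 family, which keeps cells epithelial by restraining ZEB factors in mammals, was higher in mucus in every tested row. All 5 rows were called higher in mucus, against 13.7% of all tested rows. They hold only 3 distinct count profiles, since the 3 miR-200a rows agree within 2% or 5 counts in each library. Their summed level, in which the miR-200a profile enters 3 times, was 815 to 2736 CPM in plasma and 74522 to 81232 CPM in mucus. miR-200b-3p was at 603, 206 and 608 CPM in plasma and 18862, 25790.3 and 29136 CPM in mucus, a log2 fold change of -5.70 (SE 0.60, adjusted p = 1.46e-04). miR-200a-1-5p was at 709.9, 203 and 652 CPM in plasma and 18415, 18358 and 16113 CPM in mucus, a log2 fold change of -5.08 (SE 0.60, adjusted p = 2.61e-04). miR-429-3p, the scarcest member, had 14, 0 and 42 counts in plasma and 306, 156 and 718 in mucus, where it was higher by a log2 fold change of -6.78 (SE 1.65, adjusted p = 0.00897). The groups did not overlap for any of them.

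The miR-183 cluster, known from sensory hair cells and other epithelia, had 2 of 3 tested members called higher in mucus, against 13.7% of all tested rows. Members miR-183-5p and miR-182-5p had fold changes of -3.70 (SE 0.62, adjusted p = 0.00201) and -2.13 (SE 0.71, adjusted p = 0.0316) on the log2 scale. miR-183-5p was at 195, 100. and 127 CPM in plasma and 839, 2245 and 2395 CPM in mucus, so that the lowest mucus library still lay above the highest plasma library. miR-96-5p, at 31, 3.27 and 0 CPM in plasma and 41.8, 119.7 and 107 CPM in mucus, was not called (log2 fold change -2.96, SE 1.66, adjusted p = 0.157). Blocking on the fish turned these round: with the replicate block miR-96-5p was called (adjusted p = 0.0205) and miR-182-5p was not (adjusted p = 0.102). Without stressed plasma replicate 3 or stressed mucus replicate 3 the call of miR-182-5p was also lost, at an adjusted p of 0.23 in the former case and a log2 fold change of -1.72 in the latter.

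miR-140-5p, known from cartilage in vertebrates, was the only row with counts in all 3 mucus libraries and none in plasma. It had 105, 16 and 421 counts in mucus, or 141, 38.3 and 286 CPM, and was at least 899-fold higher there (adjusted p = 0.0021). This row passed the filter through mucus alone, so that its direction was fixed by it. miR-725-5p, a miRNA known mostly from teleost fish, was at 52.5, 21.1 and 124 CPM in plasma and 4873, 10205 and 4904 CPM in mucus, a log2 fold change of -6.66 (SE 0.86, adjusted p = 4.67e-04). Mucus thus exceeded plasma in every library for both.

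The miR-148 and miR-152 rows were also higher in mucus. miR-148b-3p was at 11.8, 2.22 and 12.1 CPM in plasma and 326, 328 and 362 CPM in mucus, with a log2 fold change of -5.28 (SE 0.92, adjusted p = 0.0021). For miR-148a-5p the log2 fold change was -4.22 (SE 0.80, adjusted p = 0.00281) and for miR-152-5p it was -2.61 (SE 0.72, adjusted p = 0.0157). The groups overlapped for none of these rows.

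miR-375-2-5p, of a miRNA known from endocrine and neuroendocrine cells, was at 167, 93 and 121 CPM in plasma and 473, 225 and 1447 CPM in mucus, a log2 fold change of -2.50 (SE 0.81, adjusted p = 0.0287), and its call was lost without stressed plasma replicate 3 (adjusted p = 0.112) and at a log2 fold change of -1.43 without stressed mucus replicate 3. miR-194a-5p, known from gut and liver, was scarce, with 24, 85 and 50 counts in plasma and 25, 20 and 53 in mucus. Its log2 fold change was -2.14 (SE 0.74, adjusted p = 0.0352), and the call was lost with the replicate block (adjusted p = 0.213), without stressed plasma replicate 3 (adjusted p = 0.189), without stressed mucus replicate 1 (adjusted p = 0.104), at a log2 fold change of -1.96 without stressed mucus replicate 2, and without stressed mucus replicate 3 (log2 fold change -2.19, adjusted p = 0.0796, above the limit on the unadjusted p). The remaining call in this direction, miR-301a-5p, rested on 13, 4 and 0 counts in plasma and 7, 6 and 8 in mucus and fell outside the rule for named miRNAs. It was also lost with the replicate block (adjusted p = 0.177).

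Most tested miRNAs of the blood cell lists were higher in plasma, with miR-155-5p the exception. miR-144-5p, the only red blood cell miRNA analysed here, was at 1073, 709 and 773 CPM in plasma and 35, 26.3 and 4.75 CPM in mucus, a log2 fold change of 5.29 (SE 0.90, adjusted p = 0.00206). miR-451 and miR-486 were not analysed here. Of 5 tested rows of the white blood cell list, 4 were called higher in plasma, against 47.3% of all tested rows, and none higher in mucus, with a median log2 fold change of 3.90. miR-142a-5p, made by all blood cell lineages in mammals, had 9835, 52031 and 14735 counts in plasma and 0 in every stressed mucus library, at least 3474-fold higher in plasma (adjusted p = 2.23e-04). It passed the filter through plasma alone, so that its direction was fixed by it.

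Among the lymphocyte miRNAs, miR-150-5p was at 1462, 5296 and 3899.7 CPM in plasma and 20.2, 0 and 80.1 CPM in mucus, a log2 fold change of 6.68 (SE 1.45, adjusted p = 0.00555). miR-181a-5p, which acts in lymphocyte development, was at 15558, 65544 and 31403 CPM in plasma and 3139.7, 2473 and 5747 CPM in mucus, a log2 fold change of 3.31 (SE 0.65, adjusted p = 0.00332). Its relative miR-181c-5p had 0 counts in mucus replicate 2 alone, and its call (log2 fold change 3.90, SE 1.58, adjusted p = 0.0624) was lost without stressed plasma replicate 1 (adjusted p = 0.134), stressed plasma replicate 2 (adjusted p = 0.218) or stressed mucus replicate 1 (adjusted p = 0.16) and, through the unadjusted p, with DESeq2 size factors (adjusted p = 0.08). The unadjusted p also missed its limit with no filter (adjusted p = 0.0949) and with all known rows kept (adjusted p = 0.0755). By the DESeq2 Wald test it did so too (adjusted p = 0.0946). miR-155-5p, induced in activated immune cells, was at 45.6, 12.7 and 31.5 CPM in plasma and 21.6, 16.8 and 43.4 CPM in mucus and was not called (log2 fold change 0.12, SE 0.81, adjusted p = 0.896).

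miR-126-5p, the endothelial miRNA, was higher in plasma, at 11246, 9882 and 8569.6 CPM in plasma and 76.8, 21.5 and 40.7 CPM in mucus, a log2 fold change of 7.73 (SE 0.66, adjusted p = 5.93e-05). miR-143-5p and miR-145-5p, a cluster of smooth muscle in mammals, had log2 fold changes of 6.60 (SE 0.51, adjusted p = 5.93e-05) and 7.63 (SE 0.59, adjusted p = 5.93e-05). In plasma miR-143-5p was at 7259.5, 7508 and 5837 CPM and miR-145-5p at 6624, 10669 and 6566 CPM, whereas in mucus neither passed 101 CPM. None of these calls was lost under any alternative.

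In the list of thrombocyte and endothelial miRNAs, 4 of 6 tested rows were called higher in plasma, not far from the 47.3% of all tested rows, none higher in mucus, and the median was 3.39 on the log2 scale. Besides miR-126-5p these were both arms named for miR-199a, at 4.25 (SE 0.94, adjusted p = 0.00555) for the 5p and 5.35 (SE 1.81, adjusted p = 0.0335) for the 3p row, and miR-222b-5p at 2.53 (SE 0.70, adjusted p = 0.0158). miR-199a-3p was counted in mucus replicate 3 only, with 76 counts, and its call was lost without stressed plasma replicate 1 (adjusted p = 0.107), stressed plasma replicate 2 (adjusted p = 0.0838) or stressed mucus replicate 2 (adjusted p = 0.096). In the latter pair of cases the unadjusted p missed its limit. miR-222b-5p was lost without stressed plasma replicate 3 (adjusted p = 0.123) and, by the size of the fold change (1.68), with DESeq2 size factors. Its paralog miR-222a-5p stood at 1651, 529 and 1312 CPM in plasma and 885, 1019.7 and 971 CPM in mucus and was not called (log2 fold change 0.28, SE 0.53, adjusted p = 0.649). miR-221-3p was counted in all plasma libraries but in mucus replicate 2 alone of the stressed mucus libraries, and was called only with the replicate block (adjusted p = 0.742 without and 0.0251 with it).

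The liver marker miR-122-5p was counted almost only in plasma. It had 5729, 2832 and 6348 counts in plasma and 0, 0 and 6 in mucus, which comes to 1161, 371 and 1324 CPM and 0, 0 and 4.07 CPM, and a log2 fold change of 9.02 (SE 1.37, adjusted p = 0.00111). Plasma counts alone carried miR-122-5p past the filter, which favoured a call higher in plasma. The other tested rows of the liver and gut list went the other way or were not called: 3 were higher in mucus (the miR-148 rows and miR-194a-5p), and miR-192a-5p was at 521, 402 and 599 CPM in plasma and 555, 211 and 502 CPM in mucus. Over all tested rows 13.7% were called higher in mucus. Muscle miRNAs were scarce in plasma, where their sum was 43.7 to 137 CPM, and had no count in stressed mucus. Of 8 muscle rows 2 passed the filter, through plasma alone, so that their direction was fixed by it. miR-133a-3-5p was at least 25.6-fold and miR-499a-5p at least 12.5-fold higher in plasma.

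Among miRNAs known mostly from teleost fish, the miR-462 paralogs were plasma miRNAs and miR-725-5p a mucus miRNA. miR-462a-5p was at 55469, 58068 and 64579.7 CPM in plasma, within the 6 most abundant, and at 366, 569.7 and 1038 CPM in mucus, a log2 fold change of 6.49 (SE 0.57, adjusted p = 6.22e-05). miR-462b-5p was at 11814, 14691 and 15782 CPM in plasma and 148, 218 and 398 CPM in mucus, a log2 fold change of 5.79 (SE 0.55, adjusted p = 8.79e-05). By CPM the spread between plasma replicates was small for both, and the lowest plasma library exceeded the highest mucus library by more than an order of magnitude. The spread was wider in shares of known counts, which are not scaled by TMM. In plasma miR-462a-5p took 7.40%, 3.51% and 5.92% of them and miR-462b-5p 1.58%, 0.889% and 1.45%. Of 4 tested rows of this list 2 were higher in plasma and 1 higher in mucus, against 47.3% and 13.7% of all tested rows.

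**Figure D3:**
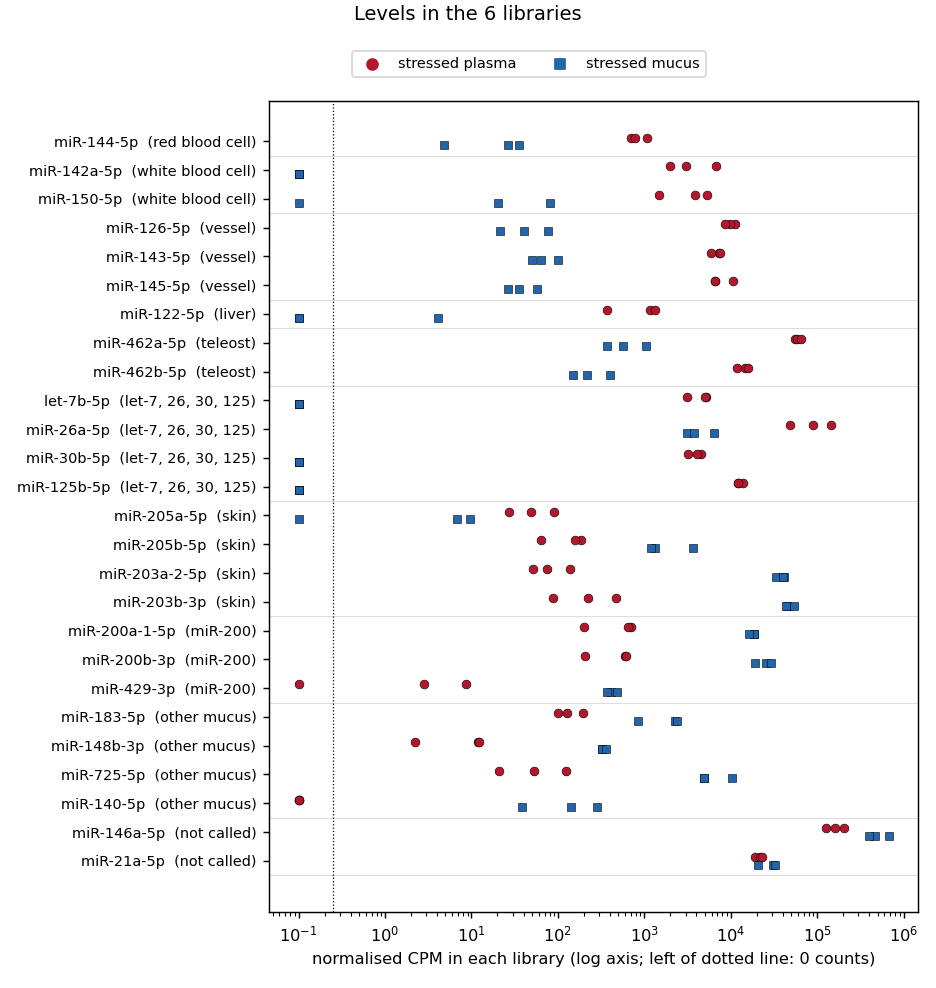
Normalised level of 26 known miRNAs in each of the 6 libraries (horizontal log axis, CPM), plasma as red circles and mucus as blue squares, with 0 counts drawn left of the dotted line and the group of each miRNA in brackets. Of the miRNAs drawn, those of blood cells, vessel, liver and miR-462 lie to the right in plasma. Those of miR-203, miR-205b, miR-200 and miR-183 lie to the right in mucus, and the last 2 rows were not called. The miRNAs drawn do not stand for their whole lists. In the blood cell and vessel lists miR-155-5p, miR-221-3p and miR-222a-5p were not called. In the liver and gut list miR-148a-5p, miR-148b-3p and miR-194a-5p were higher in mucus.

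Of 10 tested let-7 rows, which promote differentiation in animals, 9 were higher in plasma, against 47.3% of all tested rows, and none higher in mucus. Of those 9, 4 had no count in stressed mucus and passed the filter through plasma alone, so that their direction was fixed by it. The others called, let-7a-5p, let-7d-5p, let-7e-5p, let-7g-5p and let-7h-5p, had counts in all 6 libraries. Of all tested rows with such counts 36.8% were called higher in plasma. The median log2 fold change of the let-7 rows was 4.83, and the family sum of the 5p rows was higher in plasma by 3.31 (SE 0.62, adjusted p = 0.00215). let-7a-5p was at 43367, 109617 and 127632 CPM in plasma and 1956, 905 and 5460.3 CPM in mucus, a log2 fold change of 5.08 (SE 0.85, adjusted p = 0.00195). let-7e-5p, the most abundant let-7 row of mucus, was at 25115, 115358 and 84524 CPM in plasma and 12609.9, 10106 and 25089.9 CPM in mucus. Its log2 fold change of 2.23 (SE 0.66, adjusted p = 0.0194) fell below the limit, to 1.46 without stressed plasma replicate 2, to 1.40 with DESeq2 size factors and to 1.78 with library totals alone. let-7d-5p had a log2 fold change of 4.58 (SE 0.79, adjusted p = 0.0021), and let-7g-5p and let-7h-5p had 2.64 and 2.77, which fell to 1.88 and 1.93, under the limit, with DESeq2 size factors. let-7b-5p, let-7c-5p, let-7f-5p and let-7j-5p had no count in stressed mucus and were at least 3886, 736, 50.5 and 86.9 times higher in plasma. The exception was let-7i-5p, at 439.5, 596 and 687 CPM in plasma and 1016, 613 and 1182 CPM in mucus (log2 fold change -0.71, SE 0.49, adjusted p = 0.241, not called).

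All 3 tested miR-125 rows, relatives of the worm miRNA lin-4, had no count in stressed mucus. These rows, and the other tested rows at 0 in stressed mucus below, passed the filter through plasma alone. Their direction was fixed by it. miR-125b-5p was at 12124, 13752 and 12035 CPM in plasma, at least 11093-fold higher than in mucus (adjusted p = 5.93e-05), and miR-125a-5p at 8346, 12730.0 and 7984 CPM, at least 8503-fold higher (adjusted p = 5.93e-05). The scarcer miR-125a-2-3p was at least 163-fold higher. The miR-128 rows, of a miRNA best known from the mammalian brain, were at 0 in mucus as well, with 16526, 28658 and 18299 counts for miR-128-2-5p in plasma, at least 3194-fold higher. The 3 tested miR-128 rows nearly repeat 1 count profile and are not independent. Of 6 tested miR-15 and miR-16 rows, known for restraining the cell cycle, 3 were higher in plasma. Among them miR-16a-5p was at 4671, 13785 and 10410.1 CPM in plasma and 0 in mucus, at least 8446-fold higher (adjusted p = 9.77e-05), and miR-16b-5p at least 86.5-fold higher (adjusted p = 0.00253). miR-16c-5p had 0, 3168 and 966 counts in plasma and 0 in mucus, and plasma replicate 1 thus lacked it. miR-15a-3p was higher in plasma at a log2 fold change of 4.42 (SE 0.80, adjusted p = 0.00248). Against 47.3% of all tested rows called higher in plasma, the 3 of 6 here, like the 3 of 5 miR-30 rows and the 2 of 5 of the hypoxia and stress list, lay near the background.

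Of the 3 tested miR-26 rows 2 were higher in plasma, against 47.3% of all tested rows. miR-26a-5p, a miRNA of many differentiated tissues, was at 48523, 145988 and 88413 CPM in plasma and 3091, 3732 and 6383 CPM in mucus, a log2 fold change of 4.42 (SE 0.60, adjusted p = 5.72e-04). miR-26d-5p, counted in mucus replicate 3 alone, was also called (log2 fold change 4.48, SE 1.66, adjusted p = 0.0457), but not without stressed plasma replicate 1 (adjusted p = 0.0968, above the limit on the unadjusted p), stressed plasma replicate 2 (adjusted p = 0.147), stressed mucus replicate 1 (adjusted p = 0.102) or stressed mucus replicate 2 (adjusted p = 0.118). miR-100a-5p, at 135282, 637308 and 228859.8 CPM in plasma and 14551, 18339 and 30088 CPM in mucus, had a log2 fold change of 3.99 (SE 0.73, adjusted p = 0.00253), and its relative miR-99-5p one of 3.33 (SE 0.63, adjusted p = 0.00281). Of 5 tested miR-30 rows 3 were higher in plasma, with a median of 2.89: miR-30b-5p was at 3194, 4477 and 4059.8 CPM in plasma and 0 in stressed mucus, at least 3433-fold higher (adjusted p = 5.93e-05), and miR-30a-5p and miR-30d-5p had log2 fold changes of 2.89 and 3.40.

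Of 12 tested rows of the miR-17 to miR-92 list 4 were higher in plasma, none higher in mucus and 8 not called, with a median of 0.56. Over all tested rows 47.3% were called higher in plasma, and over those with counts in all 6 libraries 36.8%. In this list the rows called were those of miR-92 and miR-25. miR-92a-3p was at 15981, 19128 and 17504 CPM in plasma and 108, 55.1 and 409 CPM in mucus (log2 fold change 6.52, SE 0.88, adjusted p = 5.72e-04). miR-92a-4-5p, its near copy in counts, stood at 6.53, miR-25-3-5p at 2.73 (1.99 and not called with DESeq2 size factors or the DESeq2 Wald test), and miR-92b-3p was at least 29.2-fold higher in plasma. Among those not called, miR-17-5p was at 13.4, 39.6 and 22.3 CPM in plasma and 71.4, 101 and 54.3 CPM in mucus, and miR-20a-5p, at -1.75 (SE 0.57, adjusted p = 0.0287) on the log2 scale, leaned to mucus below the limit on the fold change.

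Of 9 tested rows of the miR-23, miR-24 and miR-27 clusters, 2 were called, both higher in plasma. The share called higher in plasma was 47.3% of all tested rows and 36.8% of those with counts in all 6 libraries. miR-23b-5p was at 90.4, 139 and 73.2 CPM in plasma and 0 in stressed mucus, at least 88.4-fold higher (adjusted p = 0.0021). miR-24a-3-5p had 6268, 9396 and 45 counts in plasma and 26, 0 and 0 in mucus, so that the groups overlapped, and its call (log2 fold change 6.15, SE 2.32, adjusted p = 0.0478) was lost without stressed plasma replicate 1 (adjusted p = 0.174), stressed plasma replicate 2 (adjusted p = 0.195) or stressed mucus replicate 2 (adjusted p = 0.144). miR-24a-3p had counts in mucus replicates 1 and 2 alone (215, 161 and 0 in mucus and 0 in plasma). The further row miR-24a-4-5p, with 6268, 9926 and 4503 counts in plasma and 0, 0 and 760 in mucus, was called only with the replicate block (adjusted p = 0.264 without and 2.22e-05 with it).

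In the hypoxia and stress list, 2 of 5 tested rows were higher in plasma. miR-210-5p, the miRNA most closely tied to hypoxia in mammals, had 383, 512 and 386 counts in plasma and 10, 0 and 18 in mucus, a log2 fold change of 3.06 (SE 1.09, adjusted p = 0.0392). Its call was lost without any 1 plasma library (adjusted p = 0.124, 0.123 and 0.121 without replicates 1, 2 and 3), without stressed mucus replicate 1 (adjusted p = 0.105) and with DESeq2 size factors (adjusted p = 0.116). miR-29a-3p had counts in plasma only and was at least 14.5-fold higher there. Of the neural and endocrine list 5 of 8 tested rows were higher in plasma and 1 higher in mucus, against 47.3% and 13.7% of all tested rows. All 5 were at 0 in stressed mucus and passed the filter through plasma alone, and 3 are the near copies of miR-128. Besides miR-128 and miR-375 the called rows were miR-212a-5p (at least 15.1-fold) and miR-9b-5p (at least 9.27-fold, not called with the replicate block, adjusted p = 0.081). miR-7a-5p, with 1422, 3421 and 2111 counts in plasma and 0, 0 and 2008 in mucus, exceeded every plasma library in mucus replicate 3 by CPM. Its log2 fold change was -0.22 (adjusted p = 0.92) without the block and 6.49 (adjusted p = 0.002) with it, so that the call and the direction rest on the pairing.

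**Figure D4:**
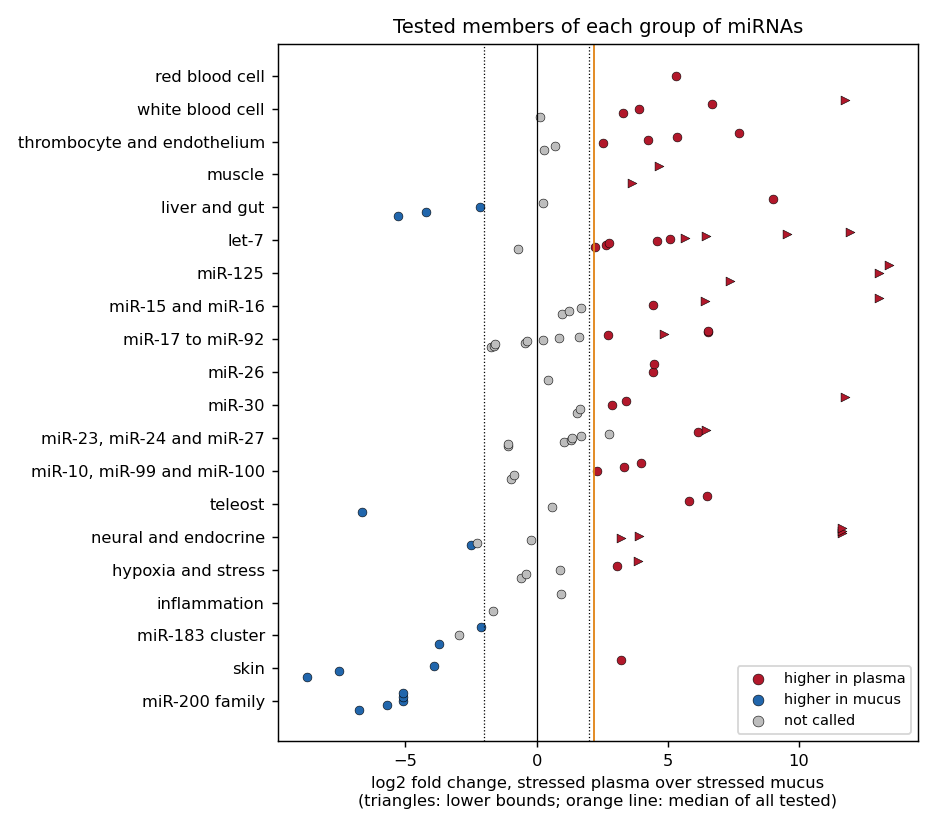
Log2 fold change of stressed plasma over stressed mucus (horizontal axis) for each tested row of 20 groups of miRNAs, coloured by call, with dotted lines at the limits of -2 and 2 and the median of all tested rows in orange. Triangles are lower bounds for rows at 0 counts in every mucus library. Skin, miR-200 and miR-183 rows lie mostly to the left, apart from miR-205a-5p, and vessel, let-7, miR-125 and miR-26 rows mostly to the right.

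The rows at 0 in mucus need care. Of the 22 tested rows without a count in stressed mucus, 12 had counts in at least 1 control mucus library and 10 had none there either. miR-30b-5p had 8238, 2313 and 0 counts in control mucus, let-7b-5p 2237, 493 and 0 and miR-142a-5p 0, 1318 and 23, while miR-125b-5p, miR-16a-5p and let-7j-5p had 0 in all 6 mucus libraries. With such rows set to their bound, the medians given for the white blood cell, let-7, miR-30 and miR-17 to miR-92 lists kept their values. In these lists the bounds still lay above the median, so it could not move. The log2 median fell from 8.49 to 3.56 for the neural and endocrine list, from 9.09 to 4.16 for muscle and from 17.98 to 13.05 for miR-125. Over the 18 libraries, 18 counts of 0 stood beside at least 50 counts of a row that otherwise agreed within 2% or 5 counts, 2 of them in the 6 libraries compared, both in miR-24a-5p. The bounds therefore hold for the rows of the table, not for a sequence.

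Several abundant miRNAs were not called. miR-146a-5p, at 126590.0, 203743 and 162614 CPM in plasma and 675560.4, 467632 and 397219 CPM in mucus, was higher in every mucus library and passed the adjusted p, but its log2 fold change of -1.64 (SE 0.46, adjusted p = 0.0158) was under the limit. With DESeq2 size factors it was called at -2.64 (adjusted p = 0.00527), and without stressed plasma replicate 2 at -2.26 (adjusted p = 0.02). miR-21a-5p, abundant in many tissues, was at 18849, 21671 and 23135 CPM in plasma and 30512, 20586 and 32622 CPM in mucus, and the groups overlapped (log2 fold change -0.40, SE 0.35, adjusted p = 0.345). miR-10b-5p was at 39408, 27003 and 27829.9 CPM in plasma and 25676, 53431 and 106747 CPM in mucus, again with overlap (log2 fold change -0.98, SE 0.55, adjusted p = 0.159). Of the 51 tested rows not called, 12 had an adjusted p under 0.1 but missed the limit on the fold change or on the unadjusted p.

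Ratios of paralogs within a library, chosen after their values were seen, differed between the fluids without any scaling. miR-10b-5p outnumbered miR-10a-5p, a row called higher in plasma (log2 fold change 2.32, SE 0.51, adjusted p = 0.00555; 1.40 and not called without stressed plasma replicate 1, 1.41 with DESeq2 size factors), by 5.67, 11.4 and 8.37 to 1 in plasma and by 30.2, 61.2 and 131 to 1 in mucus. miR-27a-5p was at 0.238, 0.159 and 0.165 of miR-27b-5p in plasma and at 1.22, 0.910 and 0.899 of it in mucus. miR-26a-5p outnumbered miR-26b-5p by 121, 193 and 175 to 1 in plasma but by 13.3, 7.53 and 12.8 to 1 in mucus. In each of these pairs the 3 plasma ratios lay apart from the 3 mucus ratios, but no share over all paralog pairs was taken as background. Among single tested rows, the groups did not overlap for 74%. Whether reads moved between paralog rows was not tested.

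Summing the rows of each miRNA number and arm left a like picture. Of 90 sums tested, 56 were called (62.2%), 41 higher in plasma (45.6%) and 15 higher in mucus (16.7%). The sum of the miR-30 5p rows was higher in plasma by 3.20 (SE 0.44, adjusted p = 4.29e-04) and that of the miR-26 rows by 4.49 (SE 0.56, adjusted p = 2.45e-04). The miR-24 5p sum was higher in plasma by 2.66 (SE 0.68, adjusted p = 0.00921). Rows with near-identical counts were added separately in such sums. In plasma replicate 1, miR-24a-3-5p, miR-24a-4-5p and miR-24a-5p each held 0.169% of the counts of distinct known rows, and all entered the miR-24 sum. In plasma replicates 2 and 3 miR-24a-5p had 0 counts. A sum can thus hold the same reads more than once, and whether such rows share reads was not tested. The sums for miR-146, miR-21, miR-10 and miR-27 were not called, at -1.60, -0.44, -0.56 and 0.33 on the log2 scale.

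The same fluids of control fish, from other fish and other libraries, differed in the same direction for most of these miRNAs. Of 129 rows tested between control plasma and control mucus, 36 were called (27.9%), 22 higher in plasma and 14 higher in mucus. Of the 80 calls of stressed fish, 73 were tested in control fish and 62 of these had the same sign, among them 47 of 56 higher in plasma and 15 of 17 higher in mucus. Over all 121 rows tested in both contrasts, called or not, 94 had the same sign. These 121 rows include the 73 calls, so they give no separate background for them. Rows called in both numbered 30, which is 37.5% of the calls in stressed fish and 83.3% of those in control fish, and all 30 had the same sign. Of the called rows at 0 in stressed mucus, 10 were at 0 in control mucus too. Where tested in control fish, such rows could only be higher in plasma in both contrasts. How many of the 62 and of the 30 they make up was not counted. The control libraries were more variable, with a common dispersion of 1.56 against 0.56. With the replicate block, in which plasma and mucus of 1 fish form a pair, none of the control rows was called by edgeR, although 34 had an unadjusted p of 0.05 or less, and DESeq2 called 46 without the block.

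Side by side, miR-203a-2-5p had log2 fold changes of -8.76 in stressed fish and -5.57 (SE 1.29, adjusted p = 0.0337) in control fish, miR-200b-3p of -5.70 and -5.57 (SE 1.30, adjusted p = 0.0337), and miR-140-5p, without a count in plasma in either, was called in both. For miR-140-5p the filter fixed the direction in each contrast. In the plasma direction miR-145-5p had 7.63 and 4.96 (SE 1.15, adjusted p = 0.0337), miR-150-5p 6.68 and 4.97 (SE 1.15, adjusted p = 0.0337), and miR-100a-5p 3.99 and 2.66 (SE 0.58, adjusted p = 0.0337). miR-122-5p had 9.02 in stressed but 2.50 (SE 1.93, adjusted p = 0.422) in control fish, and miR-462a-5p 6.49 and 2.62 (SE 1.50, adjusted p = 0.301). For miR-122-5p and miR-462a-5p the control fish thus gave no call, and the difference between the contrasts did not pass the test (adjusted p = 0.241 and 0.25).

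Tested directly over the 12 libraries, the gap between plasma and mucus differed between stressed and control fish for 6 of 152 rows (3.95%). miR-26a-5p had 170595, 673707 and 463045 counts in control plasma and 239354, 1115839 and 424027 in stressed plasma, but 0 in every control mucus library against 2295, 1559 and 9404 in stressed mucus (adjusted p = 1.65e-04). Its gap was thus the smaller in stressed fish. The sister row miR-26d-5p ran the other way in mucus, with 32465, 68 and 0 counts in control and 0, 0 and 49 in stressed mucus, and whether reads moved between these rows was not tested. miR-30b-5p, miR-125a-5p, let-7b-5p and miR-23b-5p went the other way, with counts in control mucus replicates 1 and 2 and none in stressed mucus. miR-183-5p, the last of the 6, had 2437, 259305 and 8877 counts in control plasma against 960, 764 and 607 in stressed plasma, and control plasma replicate 2 stood far above the others. Leaving out each of the 12 libraries in turn kept miR-26a-5p called in all 12 cases, miR-183-5p in 3, miR-30b-5p, miR-125a-5p and let-7b-5p in 2 each and miR-23b-5p in 1. With the replicate block miR-26a-5p was the 1 row called (adjusted p = 0.0163).

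**Figure D5:**
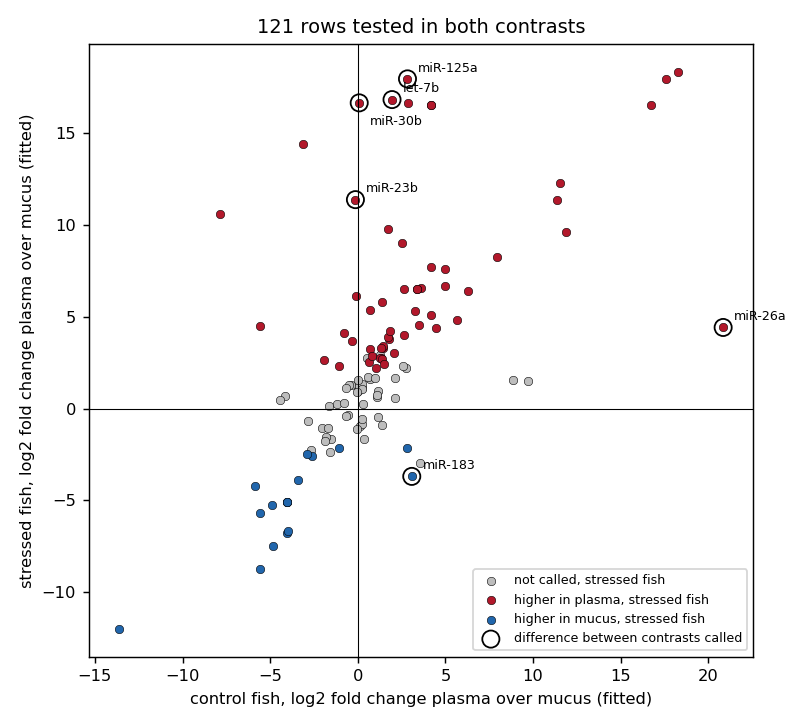
Fitted log2 fold change of plasma over mucus in control fish (horizontal axis) and in stressed fish (vertical axis) for the 121 rows tested in both, coloured by the call in stressed fish. Rings mark the 6 rows whose difference between the contrasts was called, and the most extreme fitted values come from groups with 0 counts in every library and are no measure of size.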

How the data were processed

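Small RNA libraries of 18 samples (plasma, mucus and tank water of control and stressed trout, 3 each) were prepared with the Norgen small RNA kit and sequenced on a NextSeq500. The authors trimmed reads with cutadapt 2.10 (base quality of 28 or more, 18 to 35 bases kept), aligned them to the Omyk_1.0 genome with Bowtie 1.1.1 and quantified miRNAs through miARma-Seq and miRDeep2, with names of Salmo salar. The deposited values are estimated counts per miRNA, all whole numbers, which were used as deposited. PCR reads carry no molecular identifiers, so floors cover counting error only. The arm in a name (5p or 3p) was taken as deposited and was not checked.

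The 6 libraries of stressed plasma and stressed mucus were normalised over known rows alone by TMM in edgeR 4.0.16 under R 4.3.3, filtered by filterByExpr by group, and tested with quasi-likelihood (p of 0.05 or less, Benjamini-Hochberg FDR under 0.1, absolute log2 fold change above 2). Standard errors are the log2 fold change over the square root of F. The code was tested on simulated data. Single measures used exact permutation tests (Python 3.11.15, scipy 1.17.1), for which 3 against 3 libraries give no p below 0.1 and 3 pairs none below 0.25. Each replicate is 1 fish.

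Plasma and mucus of a replicate number came from 1 fish. Their deviations from the group means correlated by 0.15, -0.10 and 0.07 for replicates 1, 2 and 3, and the main fit has no block. Alternatives were DESeq2 1.42.0, other scalings and filters, the replicate block, duplicate handling and each library left out, and keeping near-identical rows once was chosen after seeing the data. The members and lists were chosen with earlier results of these data known. Named miRNAs were the 15 of smallest p called in each direction, the 10 of highest mean CPM in each fluid, up to 10 per fluid with counts in all its libraries and 0 in the other, those the study calls, called list members, and arms or paralogs called in opposite directions. Others are named for contrast and were chosen after their values were seen. The authors' tables of their own fold changes and p-values between control and stressed samples were not used.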

Additional observations from a re-analysis of the deposited data

Results flagged for a closer look

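The gap between plasma and mucus differed between stressed and control fish in 6 miRNAs, by a test of the difference itself over 12 libraries (edgeR quasi-likelihood, adjusted p). Differences are log2 of plasma over mucus in stressed fish less the same in control fish. For 5 of the 6 a group held 0 counts in every library, so the fitted value depends on the prior count and measures no size. The difference was -16.43 (SE 1.45, adjusted p = 1.65e-04) for miR-26a-5p, whose 0 counts lay in control mucus. It was 16.06 (SE 3.66, adjusted p = 0.0781) for miR-30b-5p, 14.87 (SE 3.47, adjusted p = 0.0781) for miR-125a-5p, 14.39 (SE 3.39, adjusted p = 0.0781) for let-7b-5p and 11.12 (SE 2.80, adjusted p = 0.0803) for miR-23b-5p, whose 0 counts lay in stressed mucus. For miR-183-5p, counted in every group, it was -6.90 (SE 1.79, adjusted p = 0.0781).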

How the results depend on the processing

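The count of stressed calls lay between 72 and 92 under every setting, including each library left out, and the family sums gave 51 to 64 calls against 56. Of 70 named calls, 54 held in every alternative that gave a value and 16 were lost in at least 1, with no sign reversed. Calls at 0 counts in every library of 1 fluid, such as miR-125b-5p and miR-140-5p, could not reverse under any setting. With the DESeq2 Wald test let-7e-5p, let-7g-5p, let-7h-5p, miR-10a-5p and miR-222b-5p also fell under the limit on the fold change. The call of miR-194a-5p was also lost with no filter, through the unadjusted p (adjusted p = 0.0912). The replicate block gave 83 stressed calls, 76 of them shared with the fit without it. It called none of the control contrast (0 against 36) and 1 interaction (against 6). Control calls ran from 21 to 50 with libraries left out, the fewest without control plasma replicate 2. Interaction calls ran from 1 to 10 with libraries left out, and were 1 with library totals without TMM and 18 with the DESeq2 Wald test. The cause of these changes was not tested. Scaling with DESeq2 size factors moved the median log2 fold change by -1.15 and gave 51 calls higher in plasma and 23 higher in mucus. The difference in rows detected was 63.7 without thinning and 31.9 at 5 or more counts, and 49.0 with the block (exact p = 0.25). Mucus depth, 344347 counts of distinct known rows at the lowest, limits the bounds.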
